A study of Mus musculus with 6 samples.

Results

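The 10 major apolipoprotein genes of the mouse liver (Apoa1, Apoa2, Apoa4, Apoa5, Apob, Apoc1, Apoc2, Apoc3, Apoe and Apom) were taken by symbol from a table of read counts for 22183 genes. All 10 were found, and all 10 were among the 14681 genes that passed the filter on low counts. The counts came from RNA sequencing of 3 mouse liver samples labelled DOX and 3 labelled PBS, called livers below. All 6 samples had the genotype BucheKI/KI-Hep, came from animals kept on chow, and had DDC treatment. The series describes overexpression of BUCHE, butyrylcholinesterase, in hepatocytes, and its mRNA, Bche, was counted at 1763 to 1938 CPM in DOX and 177 to 206 CPM in PBS livers (CPM are counts relative to library size, scaled by TMM to correct for library composition). DOX is commonly short for doxycycline and DDC for a porphyrinogenic compound used to injure bile ducts, but the labels spell out neither, nor the prefix S2W of the sample names. They give no age, dose or time, and no promoter or founder clone for the knock-in. Because the agent and Bche differ together between the groups, their effects cannot be told apart.

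Apolipoproteins are the protein coat of lipoproteins, the particles that carry triglyceride and cholesterol through blood. The liver builds very low density lipoprotein around apoB, and makes most of the apoA-I of high density lipoprotein. Smaller exchangeable members move between particles and set how fast lipoprotein lipase empties them and how fast receptors clear them. ApoC-II activates the lipase, apoC-III and apoC-I restrain clearance, apoA-V promotes it, and apoE is the main ligand for hepatic uptake.

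Messenger RNA of Apoa4 was lower in DOX livers, by 2.08-fold, and that of Apoa5, Apoc3 and Apom was higher, by 1.52-fold, 1.42-fold and 1.39-fold. The other 6 genes, among them Apoa1, Apob and Apoe, did not pass the test. The neighbouring genes Apoa1, Apoa4 and Apoa5, which gave these 3 different outcomes, lie on the same strand of one stretch of chromosome 9. The bases ahead of their transcription starts are shown because the genes are neighbours with unlike changes. They are RefSeq sequence of the build GRCm38.p6, plus strand, 5′ to 3′, cut so that no base falls inside the named gene in either annotation used. Overlap of these bases with other genes was not checked. Windows of 8 of the 10 genes were found there, and Apoc1 and Apoc3 had no match. Capitals mark TATAAA, the usual core of a TATA box.
Apoa1 (chr9:46228380-46228579): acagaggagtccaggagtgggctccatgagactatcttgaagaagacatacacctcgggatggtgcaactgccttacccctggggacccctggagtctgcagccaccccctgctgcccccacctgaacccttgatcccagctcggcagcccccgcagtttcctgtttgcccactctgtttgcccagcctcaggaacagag
Apoa4 (chr9:46240594-46240695): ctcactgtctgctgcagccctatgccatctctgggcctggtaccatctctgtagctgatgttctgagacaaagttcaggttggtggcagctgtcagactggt
Apoa5 (chr9:46268358-46268607): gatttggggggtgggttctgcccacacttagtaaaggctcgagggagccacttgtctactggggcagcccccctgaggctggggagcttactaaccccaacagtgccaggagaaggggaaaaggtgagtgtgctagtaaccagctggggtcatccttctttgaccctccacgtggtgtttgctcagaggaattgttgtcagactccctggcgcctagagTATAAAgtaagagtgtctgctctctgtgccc
Along with this one, 5 other motifs were searched on both strands. The core element of nuclear receptors, AGGTCA, was searched alone and as a tandem repeat with 1 base or with 4 bases between, and matches of the repeats overlap those of the single element. The others were CAAAGTCCA, an HNF4A-type site, and the HNF1-type element GTTAAT. Of 32817 windows of 300 bases, 13.6% held TATAAA, 16.3% AGGTCA, 0.04% the tandem with 1 base between, 0.015% the tandem with 4 bases between, 0.475% CAAAGTCCA and 7.1% GTTAAT. In the Apoa5 window shown TATAAA stood 31 bases before the start at 46268608. A further Apoa5 window has its start at 46268633, the start used for the cluster distances below, and there TATAAA stood 56 bases before. None of the 6 motifs was found in the windows of Apoa1 or Apoa4, which says only that these letters are not in these stretches.

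Library totals were 32476725 to 40298256 counts in DOX and 40592030 to 41921404 in PBS livers. Whether the samples of a group are from different animals is not in the labels, and the p-values rest on the spread of these 3 samples, part or all of which could be technical. Adjusted p-values are from the quasi-likelihood test of edgeR, with the Benjamini-Hochberg correction across all 14681 genes, and the threshold for a call was 0.05. In DOX livers 1975 of all genes were called higher (13.5% of those tested) and 2062 lower (14.0%), together 27.5%. With libraries scaled by total count alone the split was 1028 higher and 3429 lower, and the median log2 fold change of all genes moved to -0.16 from -0.01. Of the 10 apolipoprotein genes 3 were called higher and 1 lower, with a median log2 fold change of 0.13. The share called has to be read against genes of like abundance, since 9 of the 10 averaged at least 100 CPM, and 40.9% of the 1498 genes at that level were called (457 higher, 156 lower). By that measure 4 calls in 10 is close to the background.

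**Figure D1:**
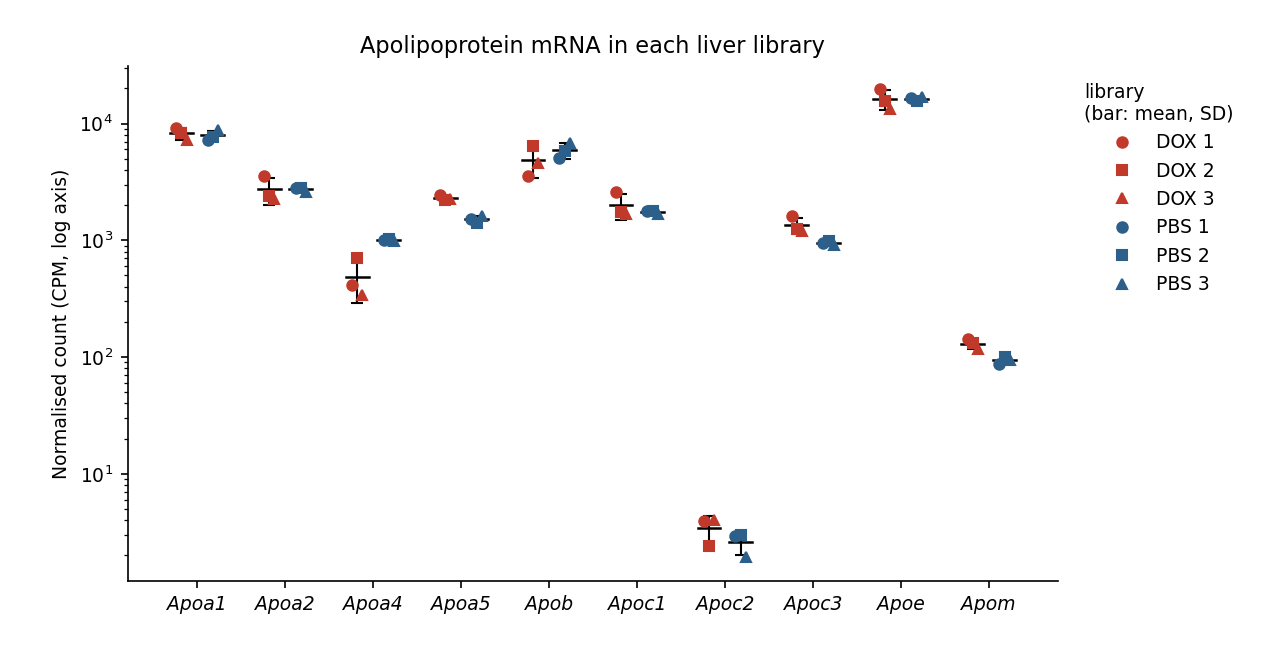
Normalised counts (CPM, log axis) of the 10 apolipoprotein genes in each library, with DOX left of PBS for every gene; points are libraries and black bars are means with SD (n = 3). The 2 groups do not overlap for Apoa4, Apoa5, Apoc3 and Apom, and overlap for the other 6 genes.

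Apoa4 encodes apoA-IV, an exchangeable protein of chylomicrons and high density lipoprotein that in mice is made by intestine and liver. It was counted at 411, 707 and 338 CPM in DOX livers 1 to 3, and at 1016, 1023 and 989 CPM in PBS livers 1 to 3. Every DOX library lay below every PBS library, and DOX 2 lay closest to them. The means were 485 ± 195 CPM in DOX and 1009 ± 17.8 CPM in PBS livers (SD, n = 3 each), with a log2 fold change of -1.06 (SE 0.24, 95% interval -1.58 to -0.53, adjusted p = 0.0101 by edgeR). It was called under all 15 alternative settings, at log2 fold changes of -1.42 to -0.85 and adjusted p-values of 1.34e-05 to 0.0467. The PBS libraries differed by a factor of 1.03 between highest and lowest, whereas the DOX libraries differed by a factor of 2.09.

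Of the intestinal epithelium markers, 2 of 3 tested, Vil1 and Fabp2, were lower in DOX livers as well (adjusted p = 0.0162 and 0.0143 by edgeR). The summed level of the 3 tested markers, which include Lgals4, was 11.9 to 24.4 CPM in DOX and 45.5 to 53.8 CPM in PBS livers. Fabp2, a fatty acid binding protein that liver also expresses, made up most of that sum. It measured 11.4, 21.8 and 8.60 CPM in DOX 1 to 3, and 40.3, 48.1 and 43.1 CPM in PBS 1 to 3, so it had the same highest DOX library as Apoa4. Of the 3 markers in the table with too few reads to test, Cdx1 and Alpi had at most 1 read in any library, and Muc2 had 8, 1 and 6 reads in DOX 1 to 3 and 2, 1 and 2 reads in PBS 1 to 3. The part of intestinal RNA in the Apoa4 values was not tested. Of Apoa4's 1815 exon bases in GENCODE M21, 1266 lie opposite the antisense genes Gm10680 and Gm47528. The sources do not say whether reads were counted by strand, so reads of either strand cannot be told apart there.

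Apoa5 encodes apoA-V, a scarce plasma protein made by hepatocytes that lowers triglyceride by promoting lipolysis. It measured 2424, 2223 and 2271 CPM in DOX livers 1 to 3, against 1515, 1413 and 1628 CPM in PBS livers 1 to 3. The lowest DOX library stood well above the highest PBS library, and the libraries of each group lay close together. The means were 2306 ± 105 CPM in DOX and 1518 ± 108 CPM in PBS livers (SD, n = 3 each; log2 fold change 0.60, SE 0.13, 95% interval 0.32 to 0.88, adjusted p = 0.0062 by edgeR). The call held under all 15 alternatives, at log2 fold changes of 0.45 to 0.66 and adjusted p-values of 1.04e-06 to 0.0470. Of the gene's 2522 exon bases, 524 lie opposite the antisense gene Gm47544, with the same uncertainty over strand as for Apoa4.

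Apoc3 encodes apoC-III, which inhibits lipoprotein lipase and slows the clearance of remnants. Its levels were 1600.4, 1249 and 1209 CPM in DOX livers 1 to 3, and 943, 988 and 919.9 CPM in PBS livers 1 to 3. The groups did not overlap, and DOX 1 stood above the other two DOX libraries. Its means were 1353 ± 215 CPM in DOX and 950.2 ± 34.6 CPM in PBS livers (SD, n = 3 each; log2 fold change 0.51, SE 0.14, 95% interval 0.20 to 0.82, adjusted p = 0.0204 by edgeR). This call was lost in 8 of 15 alternatives: the adjusted p was 0.0822 without DOX 1, 0.0757 without PBS 1, 0.0526 without PBS 2, 0.0682 without PBS 3, 0.0726 when libraries were scaled by total count alone, and 0.167 to 0.266 by limma on log2(FPKM + pseudocount). The log2 fold change stayed positive throughout, at 0.34 to 0.58.

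Apom encodes apoM, which sits on high density lipoprotein and carries sphingosine-1-phosphate. It was counted at 143, 132 and 117 CPM in DOX livers 1 to 3, and at 86.7, 100.2 and 94.7 CPM in PBS livers 1 to 3. All DOX libraries were above all PBS libraries. Apom averaged 130.4 ± 13.1 CPM in DOX and 93.9 ± 6.78 CPM in PBS livers (SD, n = 3 each; log2 fold change 0.47, SE 0.11, 95% interval 0.23 to 0.72, adjusted p = 0.00955 by edgeR). The call was lost in 4 of 15 alternatives, at an adjusted p of 0.0517 without PBS 1 and of 0.0562 to 0.0865 by limma on log2(FPKM + pseudocount). The groups of these 4 called genes did not overlap, as was the case for 44.1% of all genes tested.

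**Figure D2:**
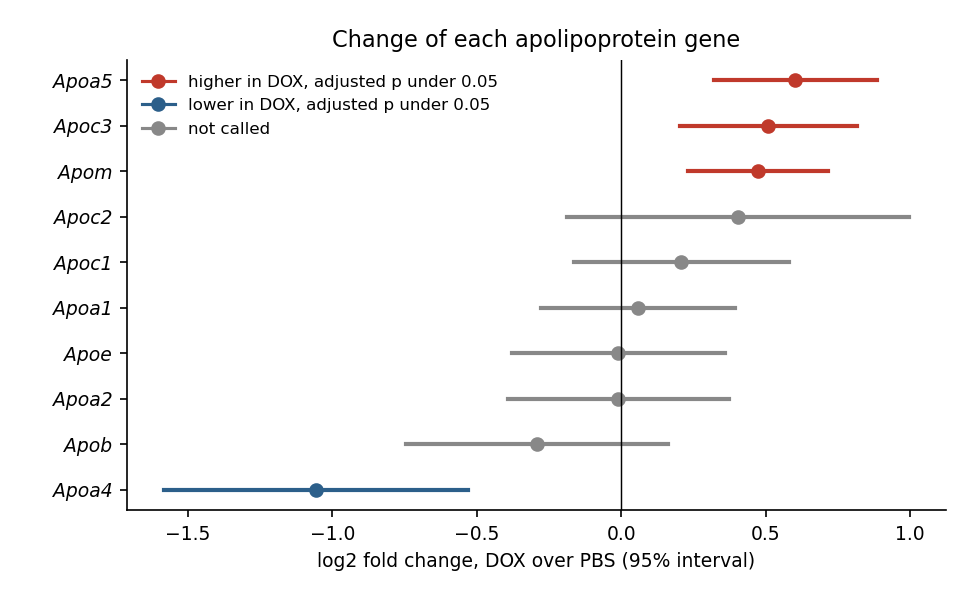
Log2 fold change (DOX over PBS) of each apolipoprotein gene with its 95% interval from edgeR's fit; 0 is no difference. Apoa4 lies at -1.06, Apoa5, Apoc3 and Apom lie at 0.47 to 0.60, and the intervals of the other 6 genes include 0.

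The structural proteins of the particles did not pass the test. Apob encodes apoB, the non-exchangeable protein on which very low density lipoprotein is built. It measured 3575, 6392 and 4551 CPM in DOX livers 1 to 3, against 5097, 5786 and 6881 CPM in PBS livers 1 to 3. DOX 2 lay within the PBS range and the other two DOX libraries lay below it. The log2 fold change was -0.29 (SE 0.21, 95% interval -0.74 to 0.16, adjusted p = 0.320 by edgeR). Without DOX 2 Apob was called lower, with a log2 fold change of -0.53 and an adjusted p of 0.0330, so that this single library decides the call.

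Apoa1 and Apoa2 encode apoA-I and apoA-II, the main proteins of high density lipoprotein. Apoa1 was at 9191, 8346 and 7177 CPM in DOX livers 1 to 3, and at 7258, 7725 and 8759 CPM in PBS livers 1 to 3. Apoa2 was at 3536, 2381 and 2267 CPM in DOX livers 1 to 3, and at 2819, 2821 and 2605 CPM in PBS livers 1 to 3. For both genes the groups overlapped, with DOX 1 highest of all 6 libraries and DOX 3 lowest. The log2 fold change was 0.06 for Apoa1 (95% interval -0.28 to 0.39, adjusted p = 0.811) and -0.01 for Apoa2 (95% interval -0.39 to 0.37, adjusted p = 0.972), both by edgeR.

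Apoe and Apoc1 are neighbours on chromosome 7. Apoe, the uptake ligand, was the most counted of the 10 genes, at 19631, 15739.6 and 13368 CPM in DOX livers 1 to 3, and 16723, 15567 and 16777 CPM in PBS livers 1 to 3. The DOX libraries reached both above and below all PBS libraries. Its log2 fold change was -0.01 (95% interval -0.38 to 0.36, adjusted p = 0.973 by edgeR). Apoc1, which encodes a small inhibitor of lipase action and uptake, measured 2592, 1755 and 1677 CPM in DOX livers 1 to 3, and 1770.2, 1766 and 1679.6 CPM in PBS livers 1 to 3. Only DOX 1 lay above the PBS range, and the log2 fold change was 0.21 (95% interval -0.16 to 0.58, adjusted p = 0.390 by edgeR). The upper ends of the intervals of these 4 genes lie between 0.36 and 0.58, so a missed threshold does not show equal levels.

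Apoc2, which encodes the activator of lipoprotein lipase, had far fewer counts than the rest. Its reads numbered 148, 81 and 127 in DOX libraries 1 to 3, and 126, 131 and 82 in PBS libraries 1 to 3, or 3.92, 2.39 and 4.03 CPM in DOX and 2.90, 2.99 and 1.92 CPM in PBS livers. The groups overlapped, and the log2 fold change was 0.40 (SE 0.27, 95% interval -0.19 to 0.99, adjusted p = 0.290 by edgeR). In GENCODE M21 the gene (GRCm38, chr7:19671579-19677941, minus strand) has 813 exon bases, which is also the length behind the deposited FPKM, and 646 of them (79.5%) are shared on the same strand with Gm44805, the Apoc4-Apoc2 readthrough gene. How reads matching both were counted is not stated in the labels or files, and its part in the low count was not tested. The Apoc2 values are therefore uncertain as a level of that gene, as are ratios with it. For other members the length behind FPKM differed from the GENCODE M21 exon bases, as for Apoa1 (988 against 1236) and Apoe (2440 against 2138). The annotation behind the counts is not stated, so the overlaps given for Apoc2, Apoa4 and Apoa5 may not apply to it.

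Per unit of transcript length the order of the genes differs from the order by count. FPKM, counts scaled by transcript length and library total, put Apoa1 first, at 7883 ± 839 in DOX and 8442 ± 587 in PBS livers (SD, n = 3 each), and Apoe next, at 6292 ± 1140.5 in DOX and 7073 ± 228 in PBS livers. Among all genes in the table Apoa1 ranked 6 by mean FPKM in DOX and 4 in PBS livers, and Apoe ranked 7 in DOX and 5 in PBS livers. Apoc1 (3427 ± 833 FPKM in DOX, 3315 ± 197 in PBS), Apoa2 (2755 ± 682 in DOX, 3103 ± 232 in PBS) and Apoc3 (1715 ± 257 in DOX, 1346 ± 87.1 in PBS) followed. The order differed between the groups for Apoa4, Apoa5 and Apob. In DOX livers Apoa5 (863 ± 40.0 FPKM) came before Apob (328 ± 94.0) and Apoa4 (275 ± 106), while in PBS livers Apoa4 (639.8 ± 30.9) stood beside Apoa5 (633 ± 27.0), ahead of Apob (447 ± 55.9). Among all genes Apoa4 ranked 257 in DOX and 78 in PBS livers. Apom (161 ± 13.5 FPKM in DOX, 129.8 ± 10.6 in PBS) and Apoc2 (4.02 ± 1.12 in DOX, 3.40 ± 0.862 in PBS) came last in both. Neighbours whose library ranges overlapped, and whose order is thus not resolved, were Apoc1 and Apoa2 in both groups, Apoa1 and Apoe and also Apob and Apoa4 in DOX livers, and Apoa4 and Apoa5 in PBS livers.

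Together the 10 genes took 4.04, 3.63 and 3.20% of all counts in DOX 1 to 3, and 3.98, 4.02 and 4.11% in PBS 1 to 3. The groups overlapped through DOX 1, and the means of 3.62 ± 0.422% in DOX and 4.03 ± 0.066% in PBS livers (SD, n = 3 each) differed by -0.41 percentage points (two-sided exact permutation test, p = 0.3, where 3 libraries against 3 cannot go below 0.1). Within the summed FPKM of the 10 genes Apoa4 made up 1.18 ± 0.500% in DOX and 2.55 ± 0.119% in PBS livers, and Apoa5 made up 3.69 ± 0.481% in DOX and 2.52 ± 0.121% in PBS livers (SD, n = 3 each).

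Ratios within a library do not depend on how libraries are scaled. The FPKM ratio of Apoa4 to Apoa1 was 0.0265, 0.0502 and 0.0280 in DOX 1 to 3, and 0.0830, 0.0785 and 0.0670 in PBS 1 to 3. It was lower in each DOX library than in any PBS library, by 1.18 on the log2 scale (two-sided exact permutation p = 0.1, the smallest possible, and 0.6 after Benjamini-Hochberg adjustment over 6 pairs). The ratio of Apoa5 to Apoc3, neighbours in the same cluster with opposite known effects on lipolysis, was 0.447, 0.525 and 0.554 in DOX 1 to 3, and 0.474, 0.422 and 0.522 in PBS 1 to 3. These overlapped, with a difference of 0.11 on the log2 scale (exact permutation p = 0.4, adjusted p = 0.6). The remaining pairs were Apoa1 to Apoa2 (log2 difference 0.09), Apob to Apoa1 (-0.38), Apoc2 to Apoc3 (-0.11) and Apoc2 to Apoe (0.42), with adjusted exact permutation p-values of 0.6 to 0.8. No pair of the 6 could pass after adjustment in a design of this size.

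The DOX libraries varied more among themselves than the PBS libraries for 9 of the 10 genes, Apoa5 being the exception. The coefficient of variation was 40.2% in DOX and 1.77% in PBS livers for Apoa4, 25.7% in DOX and 4.50% in PBS for Apoa2, 25.3% in DOX and 2.94% in PBS for Apoc1, and 4.56% in DOX and 7.08% in PBS for Apoa5. With 3 libraries a group this difference was not tested. The share of all genes with more spread in DOX was not counted, so the pattern cannot be called particular to the apolipoproteins. Over the whole gene table, pairs of DOX libraries differed by a chi-square per degree of freedom of 42.9 to 78.5. For pairs of PBS libraries it was 28.2 to 48.7. Among the DOX libraries DOX 1 was highest for Apoa1, Apoa2, Apoa5, Apoc1, Apoc3, Apoe and Apom, and DOX 2 was highest for Apoa4 and Apob. Apoa2 and Apoc1 deviated alike from their DOX means, by 0.40, -0.17 and -0.24 for Apoa2 and by 0.40, -0.17 and -0.23 for Apoc1 (log2, DOX 1 to 3). Apob, a very long transcript, deviated by -0.40, 0.44 and -0.05 in the same libraries.

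Counts by transcript length also differed between the DOX libraries. Genes under 1000 bases, without the apolipoproteins, took 7.53, 5.89 and 7.21% of counts in DOX 1 to 3, and 5.62, 6.10 and 4.94% in PBS 1 to 3. Genes of 10000 bases or more, without Apob, took 2.71, 3.16 and 2.99% in DOX 1 to 3, and 3.35, 3.26 and 3.43% in PBS 1 to 3, so DOX 1, which had the least Apob, also had the least of other long transcripts. Short genes were nearly as high in DOX 3 as in DOX 1, although the short transcripts Apoa2 and Apoc1 were lowest in DOX 3. Mitochondrially encoded genes took 5.11 to 6.81% of counts in DOX and 3.45 to 4.58% in PBS livers. The part of length or RNA quality in the apolipoprotein values was not tested.

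**Figure D3:**
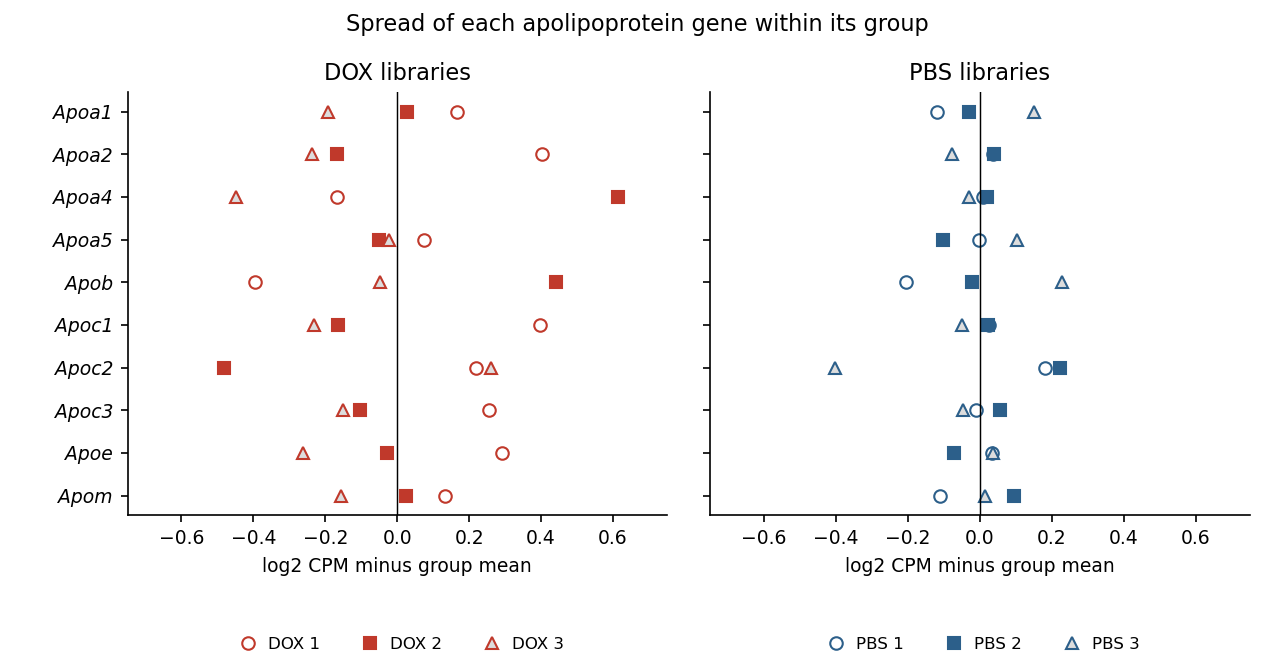
Deviation of each library from its group's mean (log2 CPM) for the 10 apolipoprotein genes, DOX libraries left of PBS libraries. In the DOX livers Apoa4 spans -0.45 to 0.62, the widest of the 10, and DOX 1 is positive for the short transcripts Apoa2 and Apoc1 (0.40 each) where Apob is negative (-0.40).

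The genes of the chromosome 9 cluster did not move together. Within 43.3 kb (GRCm38) the order is Apoa1, Apoc3, Apoa4 and Apoa5, with start sites 7056, 12116 and 40053 bases after that of Apoa1. Their log2 fold changes in that order were 0.06, 0.51, -1.06 and 0.60, so Apoa4, the one that fell, lies between Apoc3 and Apoa5, which rose. Apoc3 is on the minus strand and the others on the plus strand. In the cluster of 27.6 kb on chromosome 7 Apoe (-0.01), Apoc1 (0.21) and Apoc2 (0.40, uncertain as above) were not called, while Apoc4, a gene of the same cluster outside the 10, was called higher. Apoc4 measured 290.1, 200.0 and 212 CPM in DOX livers 1 to 3, and 182, 179 and 155 CPM in PBS livers 1 to 3 (log2 fold change 0.45, adjusted p = 0.042 by edgeR). Its groups did not overlap, but the call was lost in 11 of 15 alternatives, where the adjusted p reached 0.365. The genes Apob on chromosome 12, Apoa2 on chromosome 1 and Apom on chromosome 17 stand outside these clusters.

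**Figure D4:**
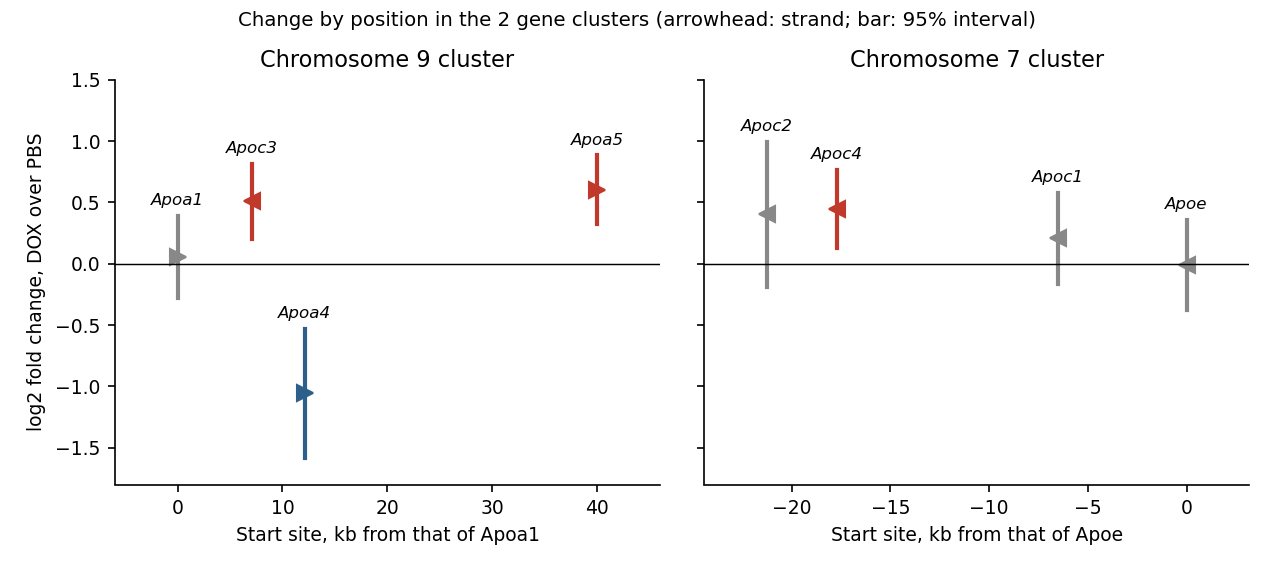
Log2 fold change (DOX over PBS) with 95% interval against the distance of each gene's start site from that of Apoa1 (chromosome 9 cluster) and of Apoe (chromosome 7 cluster), with arrowheads showing the strand. Apoa4 at -1.06 lies between Apoc3 at 0.51 and Apoa5 at 0.60, and the values of the chromosome 7 genes lie at -0.01 to 0.45.

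Genes around the apolipoproteins were read from 5 lists, of which 90 members were tested and 13 were higher and 11 lower in DOX livers, near the shares of all genes. Among 10 other apolipoprotein-named genes with Clu, 2 were higher and 2 lower (1 to 3 higher as single libraries were left out). Apoh, a plasma protein that binds phospholipid, was at 2086 ± 304 CPM in DOX and 1249 ± 23.5 CPM in PBS livers (SD, n = 3; log2 fold change 0.74, adjusted p = 0.0036 by edgeR, lost in 1 of 15 alternatives), and Apoc4 was the other that rose. Clu, which encodes clusterin or apoJ, was at 1976 ± 38.5 CPM in DOX and 3063 ± 119.6 CPM in PBS livers (log2 fold change -0.63, adjusted p = 0.00458 by edgeR). Apol7a fell as well, by 0.91 on the log2 scale.

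Of 18 genes for assembly and secretion of apoB particles, 2 were higher and 0 lower (1 to 3 higher as single libraries were left out). They were Smlr1, a membrane protein needed for lipoprotein secretion in mice (38.1 ± 7.99 CPM in DOX, 20.8 ± 4.41 in PBS; log2 fold change 0.87, adjusted p = 0.00724 by edgeR, lost in 1 of 15 alternatives), and P4hb, the partner subunit of the microsomal triglyceride transfer protein (2083 ± 141 CPM in DOX, 1576 ± 18.5 in PBS; log2 fold change 0.40, adjusted p = 0.0342 by edgeR, lost in 10 of 15 alternatives). Mttp, the large subunit of the same transfer protein, named after its value was seen, was at 290.3 ± 53.8 CPM in DOX and 264 ± 13.9 CPM in PBS livers and was not called (log2 fold change 0.14, adjusted p = 0.498 by edgeR).

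Of 14 genes for receptors and uptake 2 were higher and 2 lower. Lsr, a receptor for triglyceride-rich lipoproteins, was at 104 ± 21.8 CPM in DOX and 200.0 ± 23.5 CPM in PBS livers (SD, n = 3; log2 fold change -0.95, adjusted p = 0.00191 by edgeR), and Vldlr, a lipoprotein receptor scarce in liver, fell by 0.84 on the log2 scale. Mylip, a ubiquitin ligase that sends lipoprotein receptors for degradation, was at 30.8 ± 1.15 CPM in DOX and 20.8 ± 1.46 CPM in PBS livers (SD, n = 3; log2 fold change 0.56, adjusted p = 0.00313 by edgeR).

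Of 21 genes for lipolysis and particle remodelling 2 were higher and 3 lower, with 1 to 4 higher and 2 to 7 lower as single libraries were left out. Gpihbp1, the capillary anchor of lipoprotein lipase, was at 39.1 ± 2.51 CPM in DOX and 17.4 ± 4.01 CPM in PBS livers (SD, n = 3; log2 fold change 1.17, adjusted p = 5.20e-04 by edgeR). Lipc, hepatic lipase, was at 37.7 ± 9.71 CPM in DOX and 73.5 ± 3.22 CPM in PBS livers (log2 fold change -0.96, adjusted p = 0.00273 by edgeR). The sterol exporter Abcg1 and the proprotein convertase Pcsk6 were lower too (log2 fold changes -0.42 and -0.55), and the call of Pcsk6 was lost in 3 of 15 alternatives. Gpihbp1 is an endothelial gene, and 3 of 7 endothelial markers tested were higher too, with a summed level of 189 to 226 CPM in DOX and 161 to 182 CPM in PBS livers. Their part in its value was not tested.

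Of 27 transcription regulators 5 were higher and 4 lower, with 1 to 5 higher and 2 to 4 lower as single libraries were left out, and 0 to 6 higher and 3 to 5 lower under the other alternatives. Ppara, the fatty acid sensor that drives oxidation genes in mouse liver, was at 70.2, 125 and 76.9 CPM in DOX livers 1 to 3, and at 165, 187 and 230.3 CPM in PBS livers 1 to 3. The groups did not overlap, and DOX 2 was the highest DOX library, as for Apoa4 (log2 fold change -1.10, adjusted p = 0.0077 by edgeR). Creb3l3, a liver transcription factor that in mice activates Apoa4, Apoa5 and Apoc2, named after its value was seen, was at 101, 188 and 96.8 CPM in DOX livers 1 to 3, and at 191, 267 and 257 CPM in PBS livers 1 to 3, again with DOX 2 nearest to the PBS libraries (log2 fold change -0.89, adjusted p = 0.0439 by edgeR). This call was lost in 7 of 15 alternatives, at adjusted p-values of up to 0.163. Of the targets just named, Apoa4 was called lower, Apoa5 was called higher and Apoc2 was not called. The part of Ppara, Creb3l3 or any other regulator in the apolipoprotein values was not tested. The pioneer factor Foxa1 and the sterol sensor Nr1h3 fell by 0.61 and 0.36 on the log2 scale, and Nr2f6, an orphan nuclear receptor, rose by a log2 fold change of 0.40. The call was lost in 7 of 15 alternatives for Nr2f6 and in 4 of 15 for Nr1h3. Hnf4a, a main activator of apolipoprotein genes in hepatocytes, also named after its value was seen, was at 602 ± 26.1 CPM in DOX and 451 ± 53.6 CPM in PBS livers (SD, n = 3; log2 fold change 0.42, adjusted p = 0.0292 by edgeR), and its call was lost in 8 of 15 alternatives, at adjusted p-values of up to 0.125.

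**Figure D5:**
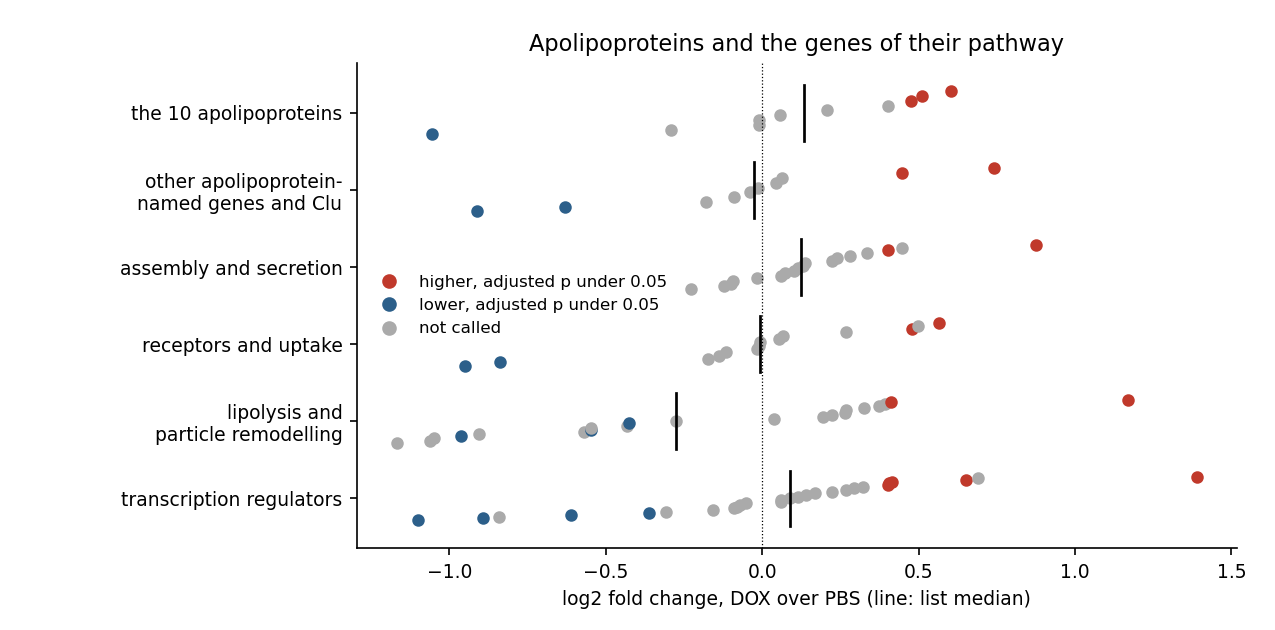
Log2 fold change (DOX over PBS) of the 10 apolipoprotein genes (top row) and of every tested gene of the 5 lists around them, red where called higher, blue where called lower and grey where not called; a line marks each list's median. Medians of the 5 lists lie between -0.28 (lipolysis and particle remodelling) and 0.12 (assembly and secretion), and every list but assembly and secretion holds called genes on both sides of 0.

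Among the genes whose pattern over the 6 libraries was nearest to that of Apoa4, by root mean square difference of centred log2 CPM among 8532 genes averaging 10 CPM or more, were the epoxygenase Cyp2j5 (0.104) and the organic anion transporter Slco1b2 (0.129). Nearest to Apoa5 were Slc49a4 (0.0312), Atg13 (0.0342) and Ccni (0.0413). With 6 libraries and so many genes, near matches of this kind are a description only.

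Hepatocyte markers, the check on the liver label, summed to 128289 to 157568 CPM in DOX and 118424 to 130197 CPM in PBS livers. Alb alone made up 70899 to 92734 CPM of that sum in DOX and 70083 to 72445 CPM in PBS livers. Of 12 hepatocyte markers 7 were higher and 0 lower in DOX livers, with a median log2 fold change of 0.53. The median of all 10 apolipoprotein genes was 0.13. Among the 1498 genes averaging at least 100 CPM, 457 were called higher and 156 lower. The 5 hepatocyte markers not called were Alb (0.21), Cps1 (0.23), Trf (-0.04), Ahsg (-0.06) and Ttr (-0.40), so the markers did not move as 1. Of 10 stellate cell and fibroblast markers 7 were lower, with summed levels of 932 to 1290.0 CPM in DOX and 1592 to 1931 CPM in PBS livers. Macrophages also make Apoe, and of 15 macrophage markers 3 were higher (Vsig4, Marco and Gpnmb) and 2 lower (Cd5l and Ptprc). Their sums were 2667 to 3100.3 CPM in DOX and 2447 to 2664 CPM in PBS livers. Much of that difference was Gpnmb, which averaged 538 CPM in DOX, with 856 CPM in DOX 3, and 224 CPM in PBS livers. In whole liver, a change in the number of cells of a type and a change in RNA per cell cannot be told apart, and the part of cell makeup in the apolipoprotein values was not tested.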

How the data were processed

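Total liver RNA (RNeasy kit) was made into mRNA-seq libraries with a SMARTER kit, per the labels. The authors deposited raw read counts per gene symbol for 6 libraries, and FPKM values for the same libraries. Count divided by FPKM gave 1 length per gene (largest relative difference between libraries 1.74e-07), so these FPKM are rescaled counts. Builds named in the submitters' processing notes are GRCm38, mm10 and hg38. The aligner, the annotation and the rules for strand and shared reads are not stated in the labels or files. The table held 0 entries with no gene name and 0 columns of other samples.

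Libraries were grouped by their labels and columns matched by title. No pair within a group was a copy (chi-square per degree of freedom 28.2 to 78.5). The test was edgeR 4.0.16 (R 4.3.3; quasi-likelihood, robust, TMM, filterByExpr with a minimum count of 10 and total of 15), DOX against PBS with group as the only term. TMM factors were 0.933 to 0.970 in DOX and 1.02 to 1.08 in PBS libraries. Alternatives were RLE size factors, total counts alone, upper quartile factors, no filter, DESeq2 1.42.0, limma 3.58.1 on log2(FPKM + 1) or log2(FPKM + 0.1) with the filter and on log2(FPKM + 1) without it, a replicate block, and each library left out, 15 in all. The script was tested on simulated counts. Ratios and shares were tested by exact permutation over libraries (scipy 1.17.1).

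Exon overlaps used GENCODE M21 (GRCm38), and promoter windows used RefSeq GRCm38.p6. The 10 genes and all lists were chosen with earlier results of these data known. Named in the text are the 10 genes, Bche, for each list its called genes of smallest p (at most 4), the 3 genes nearest to Apoa4 and to Apoa5, and the markers beside a result. Genes outside this rule are marked as named after their values were seen. Some genes that the rule names are left out here.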

Additional observations from a re-analysis of the deposited data

How the results depend on the processing

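Of 480 comparisons (32 genes under 15 alternatives), 415 kept their side of the threshold, 64 lost a call, 1 gained one (Apob without DOX 2), and 0 reversed a called change, though the sign of the uncalled genes near 0 (Apoa1, Apoa2, Apoc1, Apoe and Mttp) varied. With libraries scaled by total count alone 1028 genes were higher and 3429 lower, and 5 and 18 of the wider lists. On log2(FPKM + 1) limma gave 893 higher and 3151 lower, 1 apolipoprotein gene higher (Apoa5), and 6 higher and 19 lower in the lists. On log2(FPKM + 0.1) it gave 936 higher and 3188 lower, 1 apolipoprotein gene higher, and 6 and 19 in the lists. Without the filter limma gave 544 higher, 1 apolipoprotein gene higher and 3 list genes higher. FPKM are scaled by library total, as are the counts in the first of these settings; the cause of the remaining differences was not tested. Leaving out 1 library at a time gave 1208 to 2440 genes higher (1208 without DOX 3, 1233 without PBS 2, 1229 without PBS 3) and 1305 to 2348 lower (1329 without DOX 3, 1305 without PBS 2), 1 to 3 apolipoprotein genes higher (1 without PBS 1) and 1 to 2 lower (2 without DOX 2), and 6 to 17 list genes higher and 8 to 17 lower. The list genes higher numbered 7 without DOX 1, 6 without PBS 1 and 6 without PBS 2, and those lower numbered 17 without DOX 2. The share of counts held by the 10 genes differed by -0.62 to -0.20 points with single libraries left out. Replicate numbers did not pair the samples: deviations of same-numbered libraries correlated at 0.0861, -0.0731 and -0.134, and only number 1 correlated best with its own. With the replicate block 1633 genes were higher and 1849 lower, 3 and 1 among the apolipoprotein genes and 10 and 12 in the lists. With 3 libraries a group, smaller changes may be missed, and the few reads of Apoc2 limit its interval further.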
